A study of Mus musculus with 24 samples.

Results

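The carboxylesterases described here were 10 liver-expressed genes of the mouse Ces1, Ces2 and Ces3 families, Ces1b, Ces1c, Ces1d, Ces1e, Ces1f, Ces1g, Ces2a, Ces2c, Ces2e and Ces3a. They were taken by gene symbol from a table of read counts with 56205 gene rows, and all 10 passed the filter on low counts among 14109 genes tested. Counts came from poly(A) RNA of whole livers of 24 C57BL/6J mice. A diet deficient in methionine and choline (MCD) was given to 12 of them and the matching control diet to the other 12, each for 20 weeks. An MCD diet is deficient in 2 nutrients that the liver needs to export fat and is used to model steatohepatitis in mice. The study's methods describe the version used as rich in fat. The study's results do not use the name MCD and instead report a high-fat model called CDAHFD, named for a lack of choline and not of methionine. That both names stand for the same diet is not stated, and neither is the amount of methionine left in it. Each diet was given to 6 males and 6 females, but no library carries a sex, an age, a litter or a batch in its labels, so the 12 libraries of a diet formed 1 group. No genetic change was carried by either group.

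Carboxylesterases are serine hydrolases that cut ester, amide and thioester bonds. In hepatocytes most of them sit in the lumen of the endoplasmic reticulum, where they hydrolyse ester drugs and toxicants and also acylglycerols and cholesteryl esters, which links them to fat storage and to lipoprotein secretion. Mice carry several more of these genes than humans, in tandem arrays that arose by duplication.

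Depth was similar in the diets, with totals of 16793207 to 24915175 counts per control library and 16388650 to 24577848 counts per MCD library (two-sided permutation test with 100000 resamples, p = 0.137). TMM scaling factors, which correct each library for its RNA composition, lay between 0.642 and 0.973 in control and between 1.07 and 1.26 in MCD (p = 1e-05, the smallest these permutations can give). Levels are CPM, reads per gene scaled to library size, on TMM-scaled library sizes. Control replicate 12 stood apart, with the lowest factor and the fewest genes detected, 17469, and it held the highest control level of 6 of the 10 genes. Fold changes of the 10 genes without it are given below, while the order of levels, the pool shares and the sums include it. The summed CPM of 11 hepatocyte marker genes ran from 86725 to 197899 in control and from 68619 to 96834 in MCD (p = 7e-05), and 5 of the 11 passed the threshold, all lower. Marker sums of other liver cells moved the other way. For 5 cholangiocyte markers the sum ran from 30.1 to 146 CPM in control and from 452 to 904 CPM in MCD, and for 9 mesenchymal markers from 169 to 553 and from 780 to 1391 (p = 1e-05 for each). All 5 cholangiocyte, 8 of 9 mesenchymal, 6 of 9 macrophage and 4 of 6 lymphocyte markers rose. The other 3 macrophage markers, Clec4f, Vsig4 and Timd4, and the other mesenchymal marker, Lrat, fell, and the other 2 lymphocyte markers did not pass the threshold. No defining marker of these cells was at a median of 0. Macrophage marker sums ran from 116 to 333 CPM in control and from 255 to 418 in MCD (p = 7e-05), and lymphocyte sums from 2.83 to 8.68 and from 9.45 to 21.1 (p = 1e-05). Sums of adipocyte markers ran from 9.49 to 160 CPM in control and from 56.3 to 221 in MCD (p = 0.0196), those of enterocyte markers from 1271 to 5128 and from 587 to 2373 (p = 0.00016), and those of pancreas markers from 3.08 to 21.6 and from 3.97 to 8.90 (p = 0.23). Of 3 enterocyte markers tested, 1 rose and 2 fell, so their sum does not follow each of them. Kidney markers were at a median of 0 in all 6 cases, as were Adipoq, Plin1 and Lep of adipocytes, Alpi, Sis and Lct of enterocytes and Prss2, Cpa1, Ctrb1 and Pnlip of pancreas. Fewer hepatocytes in a liver and less RNA per hepatocyte cannot be told apart in whole tissue, and the part of these shifts in the results was not tested.

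All 10 genes lie on mouse chromosome 8 (GRCm38, the build given as mm10 in the labels) in a pair of clusters. The Ces1 genes run on the minus strand from Ces1b (ENSMUSG00000078964, chr8:93056728-93080017) through Ces1c (ENSMUSG00000057400, chr8:93099015-93131283), Ces1d (ENSMUSG00000056973, chr8:93166068-93197838), Ces1e (ENSMUSG00000061959, chr8:93201218-93229619) and Ces1f (ENSMUSG00000031725, chr8:93256236-93279747) to Ces1g (ENSMUSG00000057074, chr8:93302369-93337308). The others run on the plus strand from Ces2a (ENSMUSG00000055730, chr8:104734003-104741634) through Ces2c (ENSMUSG00000061825, chr8:104847068-104854483) and Ces2e (ENSMUSG00000031886, chr8:104926260-104934672) to Ces3a (ENSMUSG00000069922, chr8:105048601-105058413). All are annotated as protein-coding. Since paralogs can share reads, the 51-base words of each gene's transcripts were compared with those of every other gene. Ces2c shared 35.4% of its words with other genes, and 32.2% of all its words were shared with the pseudogene Ces2d-ps. Ces3a shared 25.1% with Ces3b, and Ces2a shared 16.9%, most of it with Gm7208. Ces1c and Ces1b shared 12.6% and 11.1% with other genes, mostly with each other. For the other 5 genes the share was between 0.843% and 3.12%. How reads that match several genes were counted is not given in the sources used here, so the levels of Ces2c, Ces3a, Ces2a, Ces1c and Ces1b carry that uncertainty. Counts of Ces2d-ps were at most 9 and those of Gm7208 at most 8 in any library, while Ces3b, with 1654 to 11392 counts, was strongly expressed. Exons of Ces3a also overlap Gm45724 on the opposite strand, which had at most 34 counts against at least 8138 for Ces3a.

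Promoter sequences are shown for the pair of neighbouring genes that moved in opposite directions and for the 3 Ces2 genes, of which 2 fell. They were taken from RefSeq (GRCm38.p6), which gave an entry for 7 of the 10 genes, without Ces1d, Ces1f and Ces3a. Each window holds 250 bases before the RefSeq start of the gene and 50 after it, read 5′ to 3′ on the strand of the gene. The windows of Ces1b (chr8:93079891-93080190, minus strand) and Ces1c (chr8:93131234-93131533, minus strand) were 92.7% identical over 273 aligned bases. Capitals mark TTATGTAA, a D-box of the kind bound by PAR bZIP factors such as DBP.
Ces1b: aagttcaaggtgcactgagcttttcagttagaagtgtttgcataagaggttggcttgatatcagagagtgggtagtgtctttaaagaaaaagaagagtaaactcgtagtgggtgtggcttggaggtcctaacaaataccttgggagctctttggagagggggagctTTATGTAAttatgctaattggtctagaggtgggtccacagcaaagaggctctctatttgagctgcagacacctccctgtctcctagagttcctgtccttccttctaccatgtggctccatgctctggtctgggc
Ces1c: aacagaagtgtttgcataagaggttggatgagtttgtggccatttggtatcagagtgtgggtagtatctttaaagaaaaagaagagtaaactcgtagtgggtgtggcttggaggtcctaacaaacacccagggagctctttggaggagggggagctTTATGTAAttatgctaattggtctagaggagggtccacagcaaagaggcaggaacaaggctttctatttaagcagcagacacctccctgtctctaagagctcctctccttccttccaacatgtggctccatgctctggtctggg
The D-box began 84 bases before the start in Ces1b and 94 bases before it in Ces1c. It was also found in Ces1e, 81 bases before the start, and in Ces1g, 232 bases before it, and so in each Ces1 window with an entry and in no Ces2 window. Searched on both strands, these 8 letters occurred in 308 of 32851 mouse promoter windows (0.938%). Ces1b, which rose, and Ces1c, Ces1e and Ces1g, which did not rise, all held it.

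The Ces2 windows lie on the plus strand at chr8:104733753-104734052 for Ces2a, chr8:104846818-104847117 for Ces2c and chr8:104926010-104926309 for Ces2e. Between 65.9% and 69.1% of their aligned bases were identical. Capitals mark GAACTTTG, which is CAAAGTTC on the other strand, a part of the element bound by HNF4.
Ces2a: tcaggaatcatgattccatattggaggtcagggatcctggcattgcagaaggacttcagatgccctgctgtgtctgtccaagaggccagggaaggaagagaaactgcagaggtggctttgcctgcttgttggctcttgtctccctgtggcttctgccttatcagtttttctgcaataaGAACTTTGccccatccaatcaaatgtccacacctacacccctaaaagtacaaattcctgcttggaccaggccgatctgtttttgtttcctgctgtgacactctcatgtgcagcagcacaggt
Ces2c: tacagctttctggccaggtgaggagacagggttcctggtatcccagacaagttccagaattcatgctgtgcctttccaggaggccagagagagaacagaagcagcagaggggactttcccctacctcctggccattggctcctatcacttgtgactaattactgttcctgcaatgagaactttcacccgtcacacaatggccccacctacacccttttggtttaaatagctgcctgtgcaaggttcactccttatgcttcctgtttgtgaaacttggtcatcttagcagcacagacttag
Ces2e: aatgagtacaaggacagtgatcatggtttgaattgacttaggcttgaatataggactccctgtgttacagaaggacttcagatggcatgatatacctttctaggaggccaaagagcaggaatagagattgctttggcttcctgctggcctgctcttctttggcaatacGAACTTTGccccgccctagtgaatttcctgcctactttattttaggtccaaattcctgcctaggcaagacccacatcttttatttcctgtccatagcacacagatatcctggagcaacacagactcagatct
This motif was present in Ces2a, 72 bases before the start, and in Ces2e, 82 bases before it. Its exact letters were not in the window of Ces2c, which holds gaactttc in the matching stretch. That stretch differs from the motif only in its last letter, so the windows do not set Ces2c clearly apart. Searched on both strands, the exact motif occurred in 1.04% of all promoter windows. DR1, a nuclear receptor repeat, and the HNF1 site were searched as well and were in 0 of the 7 windows, which says only that those letters are not there. The motifs were chosen after the sequences and the results had been seen, and a match is a description of letters.

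Of the 10 carboxylesterases, 6 fell in MCD livers, 1 rose and 3 did not pass the threshold (edgeR quasi-likelihood test, Benjamini-Hochberg FDR of 0.01 or less and a log2 fold change beyond 0.5 in either direction). Over all genes tested, 19.1% fell and 19.2% rose, or 38.3% in all. The median log2 fold change was -0.68 over the 10 genes and -0.10 over all genes tested. The genes that fell were Ces1f, Ces2a, Ces1e, Ces1d, Ces2e and Ces1c, and the one that rose was Ces1b. Every MCD library lay below every control library for 2 of the 10, Ces1e and Ces2a, where 4.88% of all genes did so, and 0 of the 10 lay wholly above, where 9.50% of all genes did so. The plot of levels by diet shows each library.

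**Figure D1:**
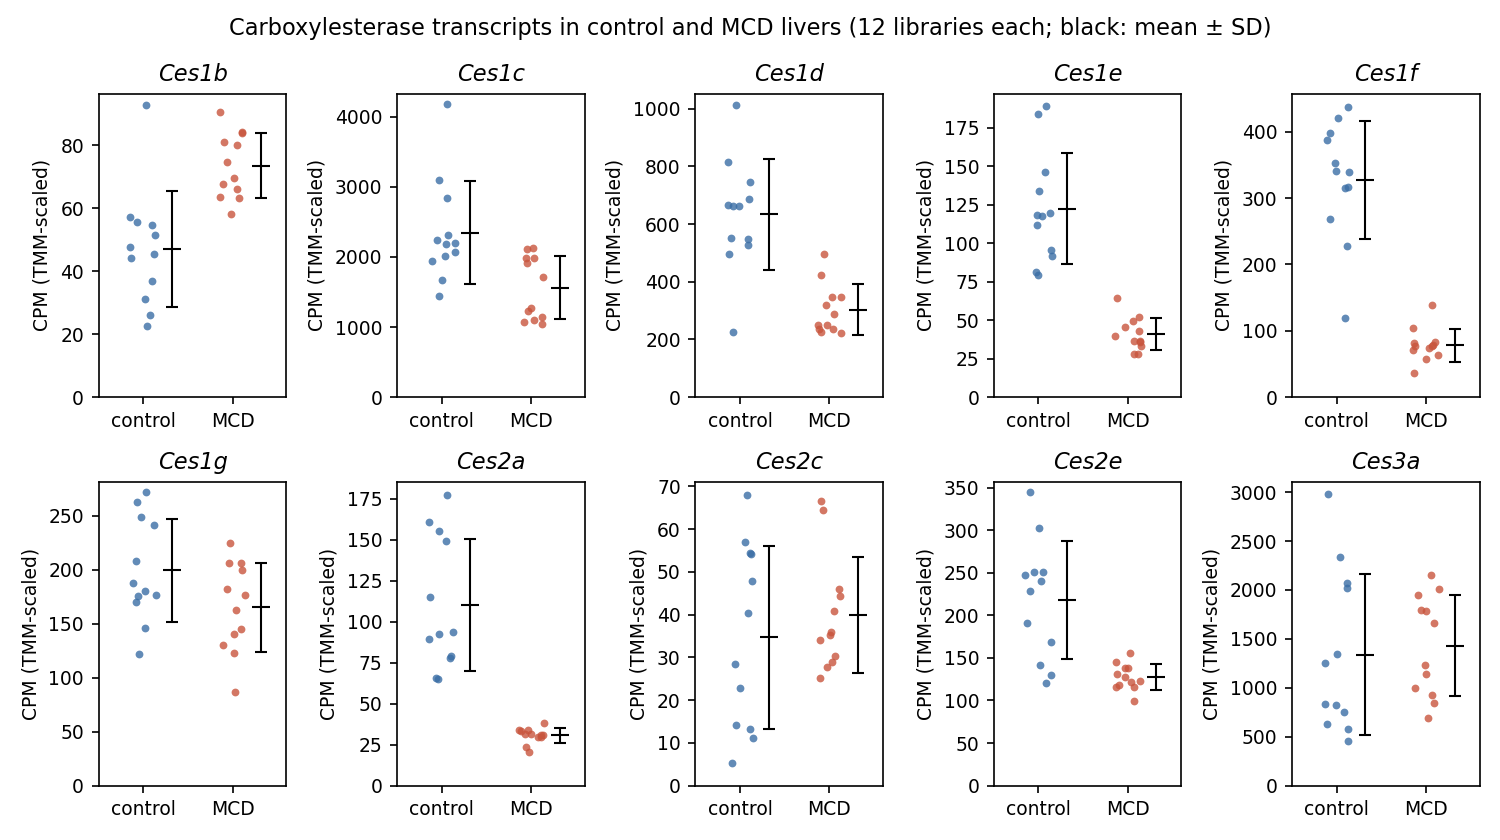
Level of each of the 10 carboxylesterases, in TMM-scaled CPM on linear axes from 0, with 1 point per library (blue, control; red, MCD; 12 each) and the mean ± SD in black. MCD points for Ces1e and Ces2a sit wholly below the control points, those for Ces1b sit above 11 of the 12 control points, and those for Ces1g, Ces2c and Ces3a lie mixed with the control points.

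Among the Ces1 genes, Ces1f, Ces1d, Ces1e and Ces1c fell, Ces1b rose and Ces1g did not pass the threshold. Ces1f encodes a triacylglycerol hydrolase of the endoplasmic reticulum that has been linked to the size of lipid droplets. Its lowest, median and highest levels were 119, 340 and 437 CPM in control and 36.0, 77.0 and 138 CPM in MCD. The groups overlapped through 1 low control library, replicate 4, and 1 high MCD library, replicate 5, and the other 11 MCD libraries lay below every control. Ces1f fell by 2.06 on the log2 scale (SE 0.18; edgeR FDR = 4.77e-10), from 327 ± 89.2 to 78.5 ± 24.9 CPM (SD, n = 12 each). Ces1d, the triacylglycerol hydrolase that releases stored fat for lipoprotein assembly, fell as well. Its levels were 226, 663 and 1013 CPM in control and 221, 269 and 497 CPM in MCD, lowest, median and highest. Control replicate 4 was again the low control library and lay among the MCD libraries. The groups also overlapped without it, since MCD replicate 5, at 497 CPM, lay just above control replicate 1, at 496 CPM. Ces1d fell by 1.06 (SE 0.17; edgeR FDR = 7.58e-06), and by 1.15 without that library.

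Ces1e, also called egasyn, holds beta-glucuronidase in the endoplasmic reticulum. It ran from 79.5 to 189 CPM in control with a median of 118, and from 27.9 to 64.7 CPM in MCD with a median of 38.2. The groups did not overlap. Ces1e fell by 1.58 (SE 0.15; edgeR FDR = 2.04e-09), from 122 ± 36.0 to 41.0 ± 10.6 CPM (SD, n = 12 each). Ces1g, or esterase-x, takes part in hepatic lipid handling and did not pass the threshold. Its levels were 122, 184 and 272 CPM in control and 87.1, 169 and 225 CPM in MCD, and the groups overlapped over most of their range. Its log2 fold change was -0.27, with a 95% interval from -0.56 to 0.02 (edgeR FDR = 0.101), and the sign turned with 2 other scalings, to 0.08 with total counts alone and 0.13 when libraries were scaled to equal hepatocyte marker levels.

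The neighbours Ces1c and Ces1b moved in opposite directions. Ces1c encodes the carboxylesterase that the mouse liver secretes into plasma. Its lowest, median and highest levels were 1436, 2191 and 4174 CPM in control and 1040, 1495 and 2130 CPM in MCD. The MCD libraries overlapped the lower control libraries. Ces1c fell by 0.59 (SE 0.16; edgeR FDR = 0.00296), but this call was lost with upper-quartile factors (-0.44), with total counts alone (-0.22) and with hepatocyte marker factors (-0.13). It was also lost without any one of 5 libraries, control replicate 7 (-0.49) and MCD replicates 2, 10, 11 and 12 (-0.51, -0.50, -0.51 and -0.51). The call was kept with a sex-linked expression score, described below, as a covariate (-0.62, SE 0.11; edgeR FDR = 2.59e-05). Ces1b ran from 22.4 to 92.8 CPM in control with a median of 46.5, and from 58.1 to 90.5 CPM in MCD with a median of 72.0. The overlap came from control replicate 7 alone, since the next control library was at 57.1 CPM, below every MCD library. Ces1b rose by 0.64 (SE 0.16; edgeR FDR = 0.00107), by 0.77 without control replicate 7, and by 0.79 to 1.08 with the 3 scalings that ended the call of Ces1c. The share of reads that Ces1b and Ces1c could exchange, given above, bears on each of these values, and its effect was not tested.

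The Ces2 genes encode a second class of hydrolase, which in liver acts on acylglycerols and on drug esters. Ces2a ran from 64.9 to 177 CPM in control with a median of 93.2, and from 20.5 to 38.0 CPM in MCD with a median of 31.1. The groups did not overlap, and the MCD libraries lay close together. Ces2a fell by 1.85 (SE 0.16; edgeR FDR = 2.62e-10), from 110 ± 40.1 to 30.6 ± 4.60 CPM (SD, n = 12 each). Ces2e had levels of 120, 234 and 344 CPM in control and 99.5, 125 and 156 CPM in MCD, lowest, median and highest. The lowest controls lay within the MCD range. Ces2e fell by 0.77 (SE 0.14; edgeR FDR = 3.06e-05), a call that was lost with total counts alone (-0.38) and with hepatocyte marker factors (-0.33).

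Ces2c and Ces3a did not pass the threshold and varied more than the other genes among control livers. Ces2c ran from 5.41 to 67.9 CPM in control with a median of 34.4, and from 25.3 to 66.5 CPM in MCD with a median of 35.5. The MCD range lay inside the control range, but without control replicate 12 the highest control was at 57.0 CPM and 2 MCD libraries lay above it. Its log2 fold change was 0.20 with a 95% interval from -0.42 to 0.83 (edgeR FDR = 0.572), an interval that spans falls and rises. Ces3a ran from 456 to 2977 CPM in control with a median of 1046, and from 690 to 2151 CPM in MCD with a median of 1447. Again the MCD range lay inside the control range, and the log2 fold change was 0.10 with a 95% interval from -0.48 to 0.67 (edgeR FDR = 0.78). The coefficient of variation among control libraries was 61.7% for Ces2c and 61.2% for Ces3a, and between 23.8% and 39.2% for the other 8 genes. Part of the spread of Ces2c and Ces3a went with a sex-linked expression score, and their diet effects fitted with that score are given below.

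Leaving out control replicate 12 changed none of the 10 calls. Without it the log2 fold changes were -1.98 for Ces1f, -1.73 for Ces2a, -1.47 for Ces1e, -0.99 for Ces1d, -0.66 for Ces2e, -0.56 for Ces1c and 0.67 for Ces1b. Of the 3 genes that did not pass, Ces1g was then at -0.25, Ces2c at 0.37 and Ces3a at 0.30. With the scalings other than TMM, the median over all genes tested moved up by 0.15 with upper-quartile factors, by 0.37 with total counts and by 0.43 with hepatocyte marker factors, and the plot of fold changes shows the genes moving with it. Ces1f, Ces2a, Ces1e and Ces1d remained called lower, and Ces1b higher, with each of these scalings.

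**Figure D2:**
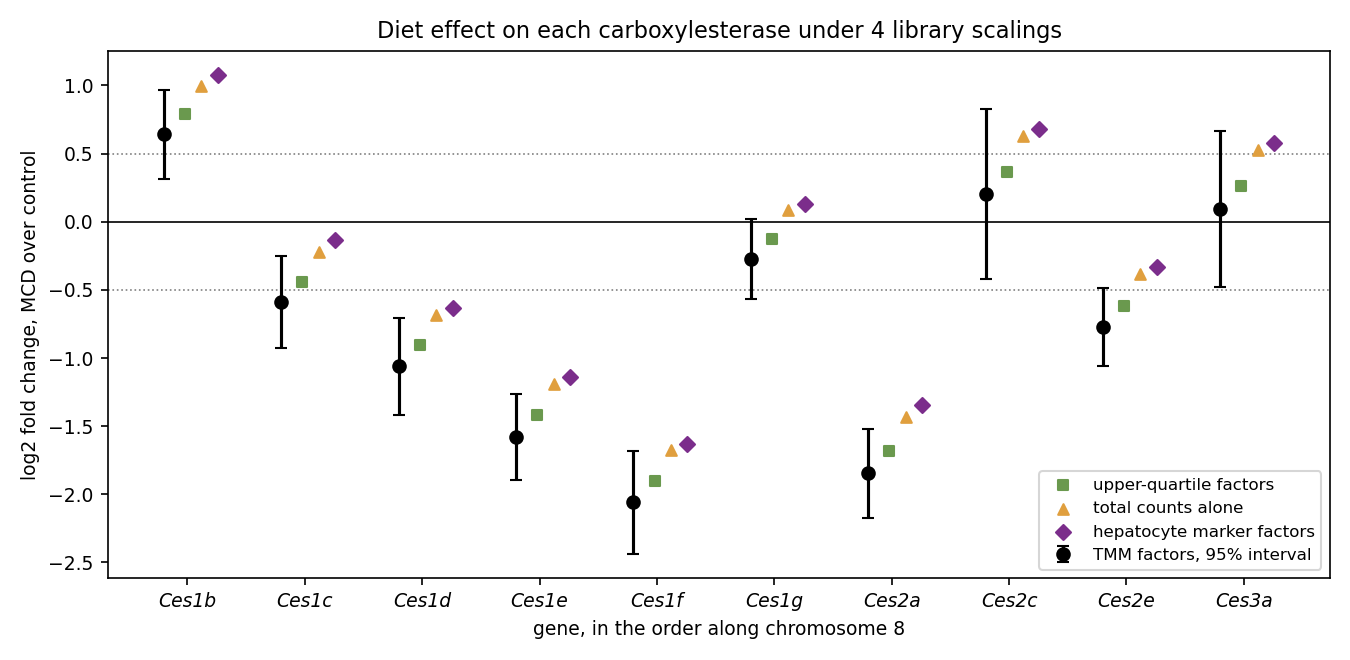
Log2 fold change of each carboxylesterase, MCD over control, from edgeR with 4 library scalings (black circles with 95% intervals, TMM; green squares, upper quartile; orange triangles, total counts alone; purple diamonds, hepatocyte marker factors), with dotted lines at the fold limit of 0.5 in either direction. Ces1f runs from -2.06 with TMM to -1.63 with hepatocyte marker factors and Ces1b from 0.64 to 1.08, while the points of Ces1g lie on either side of 0.

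The order of the genes was compared on levels per kilobase of the longest annotated transcript. In control livers Ces1c led with 1284 ± 399 CPM per kilobase, followed by Ces3a with 655 ± 401, Ces1d with 316 ± 95.8 and Ces1f with 170 ± 46.3 (mean ± SD, n = 12). Ces1c was above Ces3a in 11 of 12 control libraries, and Ces3a above Ces1d in 8 of 12. Ces1g at 83.4 and Ces2e at 80.8, Ces1e at 59.0 and Ces2a at 56.1, and Ces1b and Ces2c, the last of them at 17.6, were close pairs, with the first above the second in 7 of 12 libraries each. In MCD livers Ces1c was at 853 ± 246 CPM per kilobase and Ces3a at 700 ± 251. Which of them led differed along a sex-linked expression score (log2 CPM of Xist less that of Y-linked genes), with Ces3a above Ces1c in all 6 MCD libraries with a score below 0 and Ces1c above Ces3a in all 6 with a score above 0. In control Ces1c was above in 5 of 6 and in 6 of 6. Ces1d followed at 152 ± 43.5, above Ces1g at 69.2 in all 12. Ces1f stood above Ces1g and Ces2e in control and below them in MCD, at 40.7 CPM per kilobase. Ces2c at 20.3 and Ces1e at 19.8 were a close pair in MCD, with Ces2c above in 7 of 12, and Ces2a was at 15.6, below Ces1e in 10 of 12.

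The makeup of the carboxylesterase pool was described by taking the summed level per kilobase of the 10 genes as the pool. Ces3a made up 23.1 ± 10.96% of it in control and 36.0 ± 13.2% in MCD, and Ces1c 47.4 ± 11.4% and 43.5 ± 11.4% (SD, n = 12 each). These SDs pool separate ranges of the sex-linked score. In libraries with a score below 0, Ces3a made up 27.0% to 38.7% in control and 46.8% to 50.97% in MCD, and Ces1c 32.6% to 38.8% and 31.4% to 34.2%. Above 0, Ces3a made up 10.4% to 18.7% in control and 18.6% to 26.9% in MCD, and Ces1c 54.4% to 61.4% and 50.9% to 58.1%. The sum of both genes was 70.4 ± 4.13% in control and 79.5 ± 2.38% in MCD. Ces1f went from 6.19 ± 1.29% to 2.05 ± 0.488%, Ces1d from 11.6 ± 2.83% to 7.70 ± 1.74% and Ces2a from 2.01 ± 0.407% to 0.802 ± 0.122%. Shares of the pool do not depend on how libraries are scaled. The share of Ces1b went from 0.891 ± 0.318% to 1.92 ± 0.192%. No test was run on the shares. Summed over the genes, the level was 5381 ± 1230 CPM in control and 3850 ± 372 CPM in MCD on TMM-scaled sizes, but as a percentage of all counts the 10 genes held 0.467 ± 0.0716 in control and 0.436 ± 0.0375 in MCD, which lies within 1 SD.

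**Figure D3:**
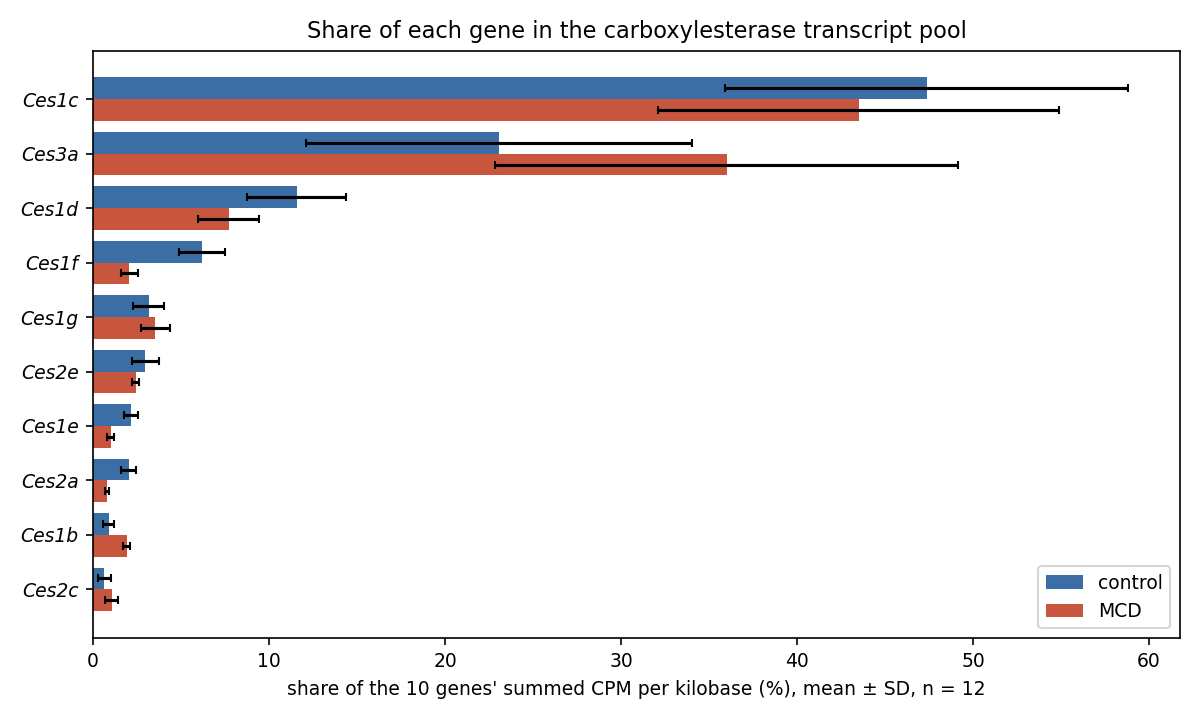
Share of each gene in the summed CPM per kilobase of the 10 carboxylesterases, in percent, with bars for the mean and error bars for the SD of 12 libraries per diet (blue, control; red, MCD). Ces1c and Ces3a take the longest bars in each diet, the bars of Ces1d, Ces1f, Ces1e and Ces2a are shorter in MCD, and those of Ces1b and Ces3a are longer. The SDs of Ces1c and Ces3a pool libraries from both ranges of the sex-linked score.

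Since male and female mice were mixed in each diet, the spread within a diet was set against a sex-linked expression score, which takes the log2 CPM of Xist and subtracts the mean over 4 Y-linked genes. It served as a numeric measure of each library and was not turned into a sex. In each diet 6 libraries lay below 0 and 6 above, and no library lay between -5.21 and 10.7. In a fit of diet plus score, with the score rescaled to run from 0 to 1 over its range, 3 of the 10 carboxylesterases had a slope past an FDR of 0.01, where 3.48% of all genes did so. The slope was positive for 1 of the 10 and negative for 2, against 1.79% and 1.69% of all genes. These slopes were the same 3 with each of the other scalings and without any single library. With the score in the fit, the diet effect was 0.43 for Ces2c (SE 0.22; edgeR FDR = 0.0917). For Ces3a it was 0.21 (SE 0.14; edgeR FDR = 0.183). Of the 10 genes, 1 was called higher and 6 lower in that fit.

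Ces3a was lower at high scores. Control libraries below 0 ran from 1255 to 2977 CPM and those above 0 from 456 to 837 CPM, and MCD libraries ran from 1662 to 2151 CPM and from 690 to 1233 CPM. The ranges on the 2 sides of the gap did not overlap in either diet. The slope was -1.44 on the log2 scale over the range of the score (SE 0.16; edgeR FDR = 6.25e-07), a 2.72-fold difference. Ces2c was also lower at high scores, with a slope of -1.28 (SE 0.26; edgeR FDR = 0.00187). In control its libraries ran from 40.4 to 67.9 CPM below 0 and from 5.41 to 28.3 CPM above 0, while in MCD the corresponding ranges, 29.0 to 66.5 CPM and 25.3 to 44.4 CPM, overlapped. Ces1c was higher at high scores, with a slope of 0.72 (SE 0.13; edgeR FDR = 0.00041). MCD libraries of Ces1c ran from 1040 to 1273 CPM below 0 and from 1717 to 2130 CPM above 0, without overlap, and control libraries from 1436 to 2312 CPM and from 2075 to 4174 CPM. The other 7 genes did not pass, the nearest being Ces2e with a slope of -0.41 (edgeR FDR = 0.0725). The leading genes of the pool, Ces1c and Ces3a, thus had slopes of opposite sign, as the plot against the score shows. A change of the diet effect along the score, tested with an interaction term chosen after seeing the data, passed for 0 of the 10 genes at an edgeR FDR of 0.01 and for 0.411% of all genes. An unadjusted p under 0.05 was given by 5 of the 10 and by 13.7% of all genes.

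**Figure D4:**
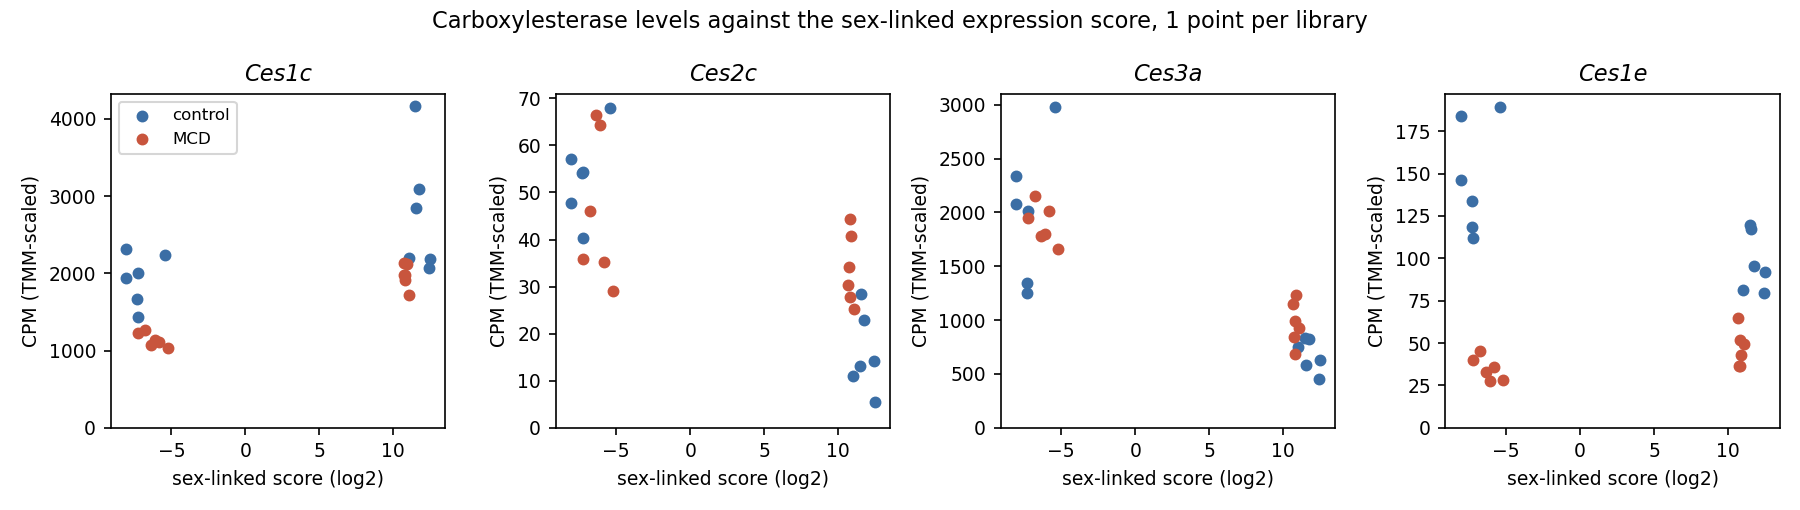
Level in TMM-scaled CPM of Ces1c, Ces2c, Ces3a and Ces1e against the sex-linked score (log2 units), with 1 point per library (blue, control; red, MCD). Points fall into a low and a high range of the score in each diet, with Ces3a and Ces2c lower and Ces1c higher on the right, while Ces1e separates by diet on each side.

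For each carboxylesterase the 3 genes with the most similar pattern were found by Pearson's r of log2 CPM after each diet mean had been taken away, over 24 libraries, as a description. The points share their libraries, their scaling and their place on the score. Ces3a was most like Ttc39c (r = 0.965), Mup11 (0.953) and Mup21 (0.953), and the last 2 encode major urinary proteins. Each of the 3 also fell with the score, with slopes of -1.57 for Ttc39c, -8.14 for Mup11 and -5.07 for Mup21. Ces1c was most like the cytochrome P450 genes Cyp2c68 (0.905) and Cyp2c37 (0.885) and the hepatic lipase gene Lipc (0.858). Cyp2c68 and Cyp2c37 rose with the score, with slopes of 1.24 and 1.41. Ces2c was most like Gstm6 (0.896), Aldh1a7 (0.884) and Slc25a17 (0.882), and Ces2e like Cyp2j6 (0.908), Ugt2b36 (0.879) and Washc3 (0.876). Gstm6 and Cyp2j6 are genes of drug metabolism, which does not hold for Slc25a17 and Washc3. Ces2a was most like Map2k3 (0.922), Pecr (0.869) and Slc27a5 (0.838), of which Pecr and Slc27a5 act on fatty acids and bile acids. For Ces1f the most similar gene was Uck1 (0.891), for Ces1e Abcb6 (0.821), for Ces1b Hamp (0.817), for Ces1d the monoacylglycerol lipase gene Abhd6 (0.815) and for Ces1g Mgst3 (0.761). No correlation between single carboxylesterases within a diet is given, since the libraries of a diet formed separate clusters on the score.

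Of 10 further carboxylesterase genes, 7 did not pass the filter on low counts (Ces1a, Ces1h, Ces2b, Ces2d-ps, Ces2f, Ces2h and Ces5a) and 3 were tested. Ces3b, the close neighbour of Ces3a in sequence, ran from 140 to 748 CPM in control with a median of 227, and from 72.6 to 204 CPM in MCD with a median of 148. Of its MCD libraries, 4 lay below every control. Ces3b fell by 1.24 (SE 0.25; edgeR FDR = 0.000115), while Ces3a did not pass. Ces2g and Ces4a did not pass the threshold.

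Other hydrolases of the liver were followed as a list of 25 genes, of which 24 were tested, 3 rose and 12 fell, where 19.2% of all genes tested rose and 19.1% fell. The 3 that rose were Lpl, the lipoprotein lipase gene, with a log2 fold change of 3.20, Ache, the acetylcholinesterase gene, with 0.79, and Abhd12, a lysophospholipase gene, with 0.70. The 12 that fell were led by Pnpla3, a lipid droplet protein gene, with -4.63, Bche, the butyrylcholinesterase gene of plasma, with -1.75, Mgll, the monoacylglycerol lipase gene, with -1.44, and Afmid, the arylformamidase gene, with -1.30 (edgeR, FDR at most 0.00184 for each gene named). Levels of Pnpla3 in MCD were 0.0468 to 0.928 CPM, from counts as low as 1. Ache was also low, at 0.408 to 1.91 CPM in control, from counts as low as 7, and 1.32 to 2.72 CPM in MCD. The list's median log2 fold change was -0.51, and its counts moved to 6 higher and 7 lower with total counts alone and with hepatocyte marker factors.

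Among 10 transcription factors known to act on hepatic drug and lipid metabolism, 7 fell and 0 rose, where 19.1% of all genes tested fell and 19.2% rose, and the median log2 fold change was -0.65. Hnf4a, which did not pass, is also on the hepatocyte marker list. Ppara, the receptor for fatty acids, ran from 23.5 to 153 CPM in control with a median of 131, and from 21.9 to 46.2 CPM in MCD with a median of 34.9. Control replicate 12, at 23.5 CPM, was the only control library within the MCD range. Ppara fell by 1.76 (SE 0.20; edgeR FDR = 2.51e-08). Nr1i3, the xenobiotic receptor CAR, had a log2 fold change of -0.90, Cebpa of -0.83 and Nr3c1, the glucocorticoid receptor, of -0.73 (edgeR FDR at most 4.65e-05). The count of 7 became 2 with total counts alone and 1 with hepatocyte marker factors. Ppara passed with each scaling, at a log2 fold change of -1.42 or lower.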

How the data were processed

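Poly(A) RNA libraries of whole liver were compared between 12 MCD and 12 control mice, grouped by the diet in the labels. The values deposited by the authors were raw read counts per Ensembl gene, 1 column per library, with 28652 of 56205 rows at 0 throughout and 0 columns unused. The submitters' processing notes name STAR 2.7.3a, bcl2fastq and mm10, without roles. The study's methods describe an exon quantification pipeline with STAR, and PISCES for gene expression, for reads aligned to the human genome, and a stranded mRNA kit. Which counting program, annotation, strand setting and treatment of multiply mapping reads applied to the mouse libraries is not given in the sources used here. Symbols, exons and transcript lengths came from GENCODE mouse release M21 (51745 rows named; rows without a symbol held 0.0808% of counts). Genes were kept with filterByExpr and tested in R 4.3.3 with edgeR 4.0.16 (glmQLFit, glmQLFTest, TMM, no covariate, all 24 libraries), with Benjamini-Hochberg adjustment over 14109 genes. The threshold was an FDR of 0.01 and a log2 fold change beyond 0.5 in either direction, as in the study's human comparison. Standard errors were the log2 fold change over the square root of F, and intervals are at 95%. The biological coefficient of variation was 26.8%. Log2 CPM used a prior count of 2. p-values measure the spread between these livers. No pair of libraries of a diet agreed within sampling noise (lowest dispersion index 11.4).

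On simulated counts for the MCD against control comparison with 14109 genes, edgeR recovered 86 of 100 genes changed by 1 and 100 of 100 changed by 2 on the log2 scale, with 3 unchanged genes called. Permutation tests were two-sided and run in Python 3.11.15 with numpy 2.4.6 and scipy 1.17.1. Promoter windows and their identity (Biopython 1.88) used RefSeq. All 10 carboxylesterases are named; from each further list, up to 4 called genes with the largest rise and up to 4 with the largest fall are named, and for likeness 3 genes per carboxylesterase with a mean of at least 5 CPM were ranked. The genes, lists and tests were chosen with earlier results of these data known. The hepatocyte list held 12 symbols, of which Tf matched no row.

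Alternatives were relative log expression, upper-quartile and hepatocyte marker factors, total counts alone, other count filters, DESeq2 1.42.0, limma-voom (limma 3.58.1), a replicate block, the sex-linked score (Xist against Ddx3y, Eif2s3y, Kdm5d and Uty) as a covariate, other thresholds, and leaving out each library.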

Additional observations from a re-analysis of the deposited data

How the results depend on the processing

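The count of carboxylesterases higher in MCD stayed at 1 and that of those lower between 4 and 6 over the alternatives, except that a log2 limit of 1 left 0 higher. Leaving out each library gave 1 to 1 higher, 5 to 6 lower and 3 to 3 slopes with the score. Ces1c was lost in each fit that ended with 5, and the cause was not tested. Ces1g turned sign, to 0.084 with total counts alone and 0.13 with hepatocyte marker factors. Of 90 correlations between carboxylesterases within a diet, which are not read here because the score splits the libraries, 12 passed an adjusted p of 0.05, 4 with total counts alone and 16 with hepatocyte marker factors. Of 120 single-gene values under the alternatives other than left-out libraries, 110 kept direction and side, 8 lost their call and 2 reversed. With the replicate block, 1 gene was higher and 6 lower; the numbers did not pair the mice (correlation above 0.1 for 8 of 12 numbers, lowest -0.28; 2 of 12 controls closest to their own number). Over all genes, 2712 rose and 2688 fell. These counts became 3261 and 1710 with upper-quartile factors, 4539 and 848 with total counts alone, 5024 and 660 with hepatocyte marker factors, 1862 and 686 with a log2 limit of 1, 3742 and 5221 with no fold limit and an FDR of 0.05, and 1801 and 1885 with at least 10 counts in every library. Depth did not limit the carboxylesterases, with at least 88 counts in every library, and no interval here covers more than counting error and the spread between livers.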

Other observations

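Whether the diet effect on a carboxylesterase changed along the sex-linked score was tested with an interaction term chosen after seeing the data. None of the 10 genes passed an edgeR FDR of 0.01 for that term, and Ces1e came nearest. Its fitted diet effect was -2.13 at the low end of the score and -1.01 at the high end, a difference of 1.12 (SE 0.27; edgeR FDR = 0.0312). In control its libraries ran from 112 to 189 CPM below a score of 0 and from 79.5 to 120 CPM above it, while in MCD they ran from 27.9 to 45.3 CPM and from 36.3 to 64.7 CPM. For Ces2c the diet effect was -0.25 at the low end and 1.10 at the high end (edgeR FDR of the difference = 0.145), and for Ces1b 1.11 and 0.26 (0.192). For Ces2e it was -1.11 and -0.36 (0.151), and control libraries of Ces2e above a score of 0, at 120 to 247 CPM, reached into the MCD range.

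The spread between libraries was wider in control than in MCD for 8 of the 10 genes by coefficient of variation, as it was for 90.0% of all genes tested. Without control replicate 12 it was wider in control for 8 of the 10 and for 80.7% of all genes, so the count for the carboxylesterases was near the background. For Ces2e it was 31.8% in control and 11.8% in MCD. The exceptions were Ces1f, at 27.3% and 31.8%, and Ces1g, at 23.8% and 24.9%.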
